A study of Homo sapiens with 6 samples.

Results

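The nuclear genes for the proteins of the mitochondrial ribosome were followed in A2780 cells exposed to the mitotic MTH1 inhibitor TH588. They were taken as the protein-coding genes of the count table whose symbols start with MRPL or MRPS and a digit. Of 58336 genes in the table, 78 met this rule, 49 named for the large subunit and 29 for the small subunit. Symbols were assigned through Ensembl identifiers, and the position of each of the 78 genes overlapped the gene of the same symbol in the GENCODE annotation of GRCh38.

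A2780 is an established human ovarian cancer cell line. Polyadenylated RNA was sequenced from 3 cultures given the vehicle DMSO (A, B and C) and from 3 given 6 µM TH588 for 48 h (A, B and C), each from an independent experiment. No transgene or deletion is named for either group. The comparison asks how the transcripts of A2780 cells differed after mMTH1i exposure.

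Mitochondria keep a small genome that encodes core subunits of the respiratory chain, and these are translated inside the organelle by a dedicated ribosome. Its rRNAs come from mitochondrial DNA, whereas all of its proteins are encoded in the nucleus, made in the cytosol and imported. Some descend from bacterial ribosomal proteins and others arose in the mitochondrial lineage.

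The libraries held between 28537837 and 99074175 counts, and TH588 A was the shallowest. Levels are given as CPM, a gene's reads relative to the size of its library after TMM scaling, which aligns libraries on the bulk of their genes. A count of 3 corresponded to 0.112 CPM in TH588 A and to 0.0276 to 0.0365 CPM in the other libraries. Of 8 markers of ovarian epithelial cancer, PAX8, KRT7, MUC16, WT1, MSLN and KRT8 were at or near 0 in these cells, whereas EPCAM averaged 0.644 CPM with DMSO and 4.74 CPM with TH588, and KRT18 averaged 3.56 and 6.54 CPM. The 8 markers summed to 3.88 to 4.62 CPM in the DMSO libraries and 10.9 to 12.2 CPM in the TH588 libraries, and their part in the results below was not tested. The leukocyte gene PTPRC and the endothelial gene PECAM1 were near 0, and the collagen gene COL1A1 averaged 3.97 CPM with DMSO and 3.84 CPM with TH588.

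Most genes of both subunits were lower after TH588. Of 77 genes that passed the filter on low counts, 45 fell, 4 rose and 28 did not pass the test (edgeR quasi-likelihood test, adjusted p under 0.05 over 15844 genes). Among all genes tested, 25.3% were called lower and 24.2% higher. The large subunit had 27 of 48 genes lower, 4 higher and 17 not called, and its log2 fold changes ran from -1.30 to 1.28 around a median of -0.44. The small subunit had 18 of 29 lower and 11 not called, with log2 fold changes from -0.92 to 0.10 around a median of -0.42. None of its genes was called higher by edgeR, DESeq2 or limma-voom, and none was higher at an unadjusted p under 0.05. The median of all genes tested was 0.02. In bulk RNA of this kind, fewer transcripts in each cell and fewer cells of a kind that carry them cannot be told apart.

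**Figure D1:**
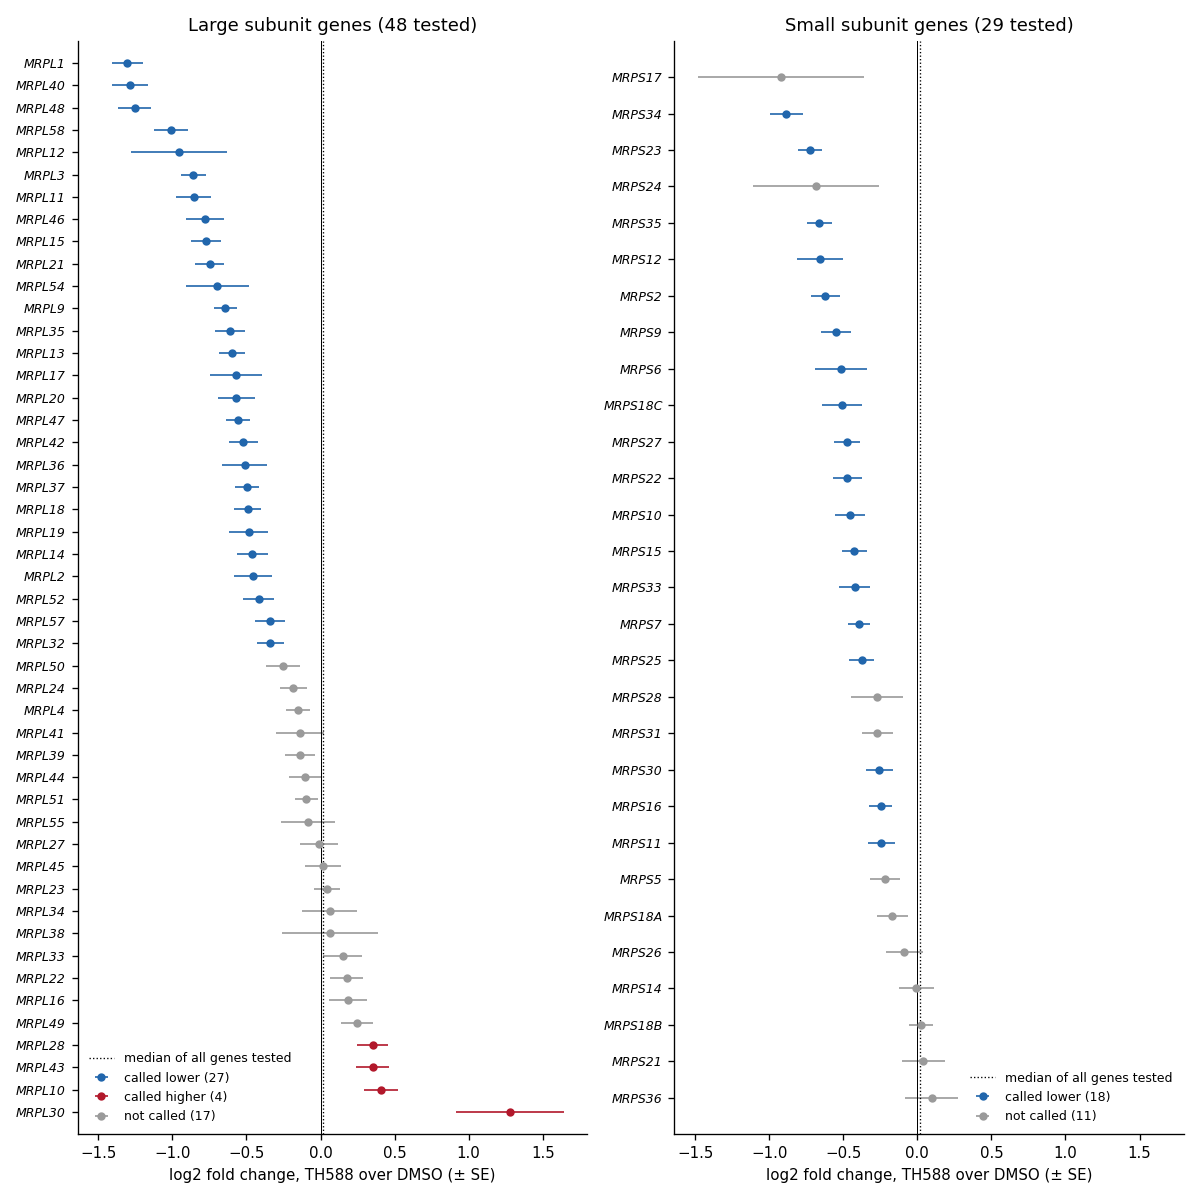
Log2 fold change of each mitochondrial ribosomal protein gene, TH588 over DMSO, on the x axis, with genes sorted along the y axis and bars of 1 standard error. Blue points were called lower, red higher and grey not called, and the dotted line is the median of all genes. In the large subunit 27 genes are blue and 4 red, and in the small subunit 18 are blue and none is red.

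The shift was also visible in the separate libraries. Every TH588 library lay below every DMSO library for 27 large-subunit and 19 small-subunit genes, an arrangement seen for 29% of all genes tested. The opposite arrangement held for 5 large-subunit genes and no small-subunit gene, against 28.7% of all genes. Transcripts of the large subunit summed to 1816, 1840 and 1850 CPM in DMSO A, B and C and to 1412, 1350 and 1355 CPM in TH588 A, B and C. Those of the small subunit summed to 1329, 1336 and 1351 CPM with DMSO and to 1100, 1013 and 1028 CPM with TH588. All TH588 sums lay below all DMSO sums, by 25.2% on average for the large subunit and 21.8% for the small. Sums over wider sets are given for comparison. All protein-coding genes together summed to 906500, 897400 and 913100 CPM with DMSO and to 784700, 772200 and 765600 CPM with TH588. Their median log2 fold change was 0.001, with 28.4% called lower and 26.0% higher. All genes of the table summed to 1012000, 1046000 and 1048000 CPM with DMSO and to 1066000, 910700 and 930200 CPM with TH588. The part of these wider differences in the subunit sums was not tested. The ratio of the large to the small sum was 1.37 ± 0.00581 with DMSO and 1.31 ± 0.0251 with TH588 (SD, n = 3), and its ranges did not overlap.

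TH588 A moved least by this measure after TMM scaling, whose factors were 0.938 in TH588 A, 1.10 in B and 1.08 in C. Without these factors, TH588 A would have the lowest sums of the TH588 libraries. Against the DMSO mean, the median log2 difference over the large-subunit genes was -0.30 in TH588 A, -0.40 in B and -0.35 in C, and over the small-subunit genes -0.32, -0.39 and -0.37. TH588 A was the highest of the 3 TH588 libraries for 39 of 77 genes (50.6%), compared with 36.8% of all genes tested. With this library left out, 29 large-subunit and 16 small-subunit genes were called lower.

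Lower calls were more frequent among abundant genes in the whole table, so the genes were also set beside others of like level. When the tested genes were divided into 4 bins of equal size by mean CPM, 4.80%, 16.6%, 33.2% and 46.7% of all genes were called lower from the lowest to the highest bin. The mitochondrial ribosomal protein genes had 0 of 4, 5 of 10, 20 of 35 and 20 of 28 lower in the same bins. In the highest bin their median log2 fold change was -0.48 and that of all genes -0.20. In the bin below it the medians were -0.34 and -0.06.

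**Figure D2:**
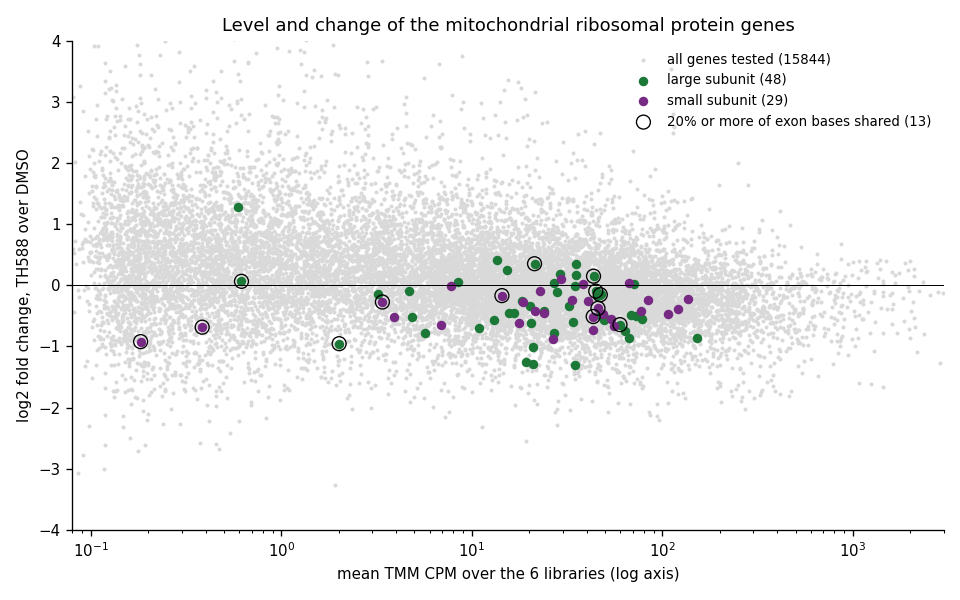
Mean TMM CPM over the 6 libraries (x, log axis) against log2 fold change, TH588 over DMSO (y), for all genes tested (grey), large-subunit genes (green) and small-subunit genes (purple). Open circles mark genes with 20% or more of their exon bases shared with another gene. Most coloured points above 10 CPM lie below 0, and 74 other genes lie beyond the axes.

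The largest fall in the large subunit was that of MRPL1, the counterpart of the bacterial L1 protein of the ribosomal stalk at the exit for spent tRNA. It lies on chromosome 4 (GRCh38, 77862520 to 77952790). It had 48.4, 50.2 and 50.1 CPM in DMSO A, B and C and 17.0, 20.1 and 22.8 CPM in TH588 A, B and C. The highest TH588 library was thus far under the lowest DMSO library, and the log2 fold change was -1.30 ± 0.10 (SE, adjusted p = 1.07e-06).

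MRPL40 and MRPL48, both of the group without a bacterial counterpart, fell by similar amounts. MRPL40 on chromosome 22 had 27.6, 33.3 and 28.4 CPM with DMSO and 10.2, 13.2 and 12.9 CPM with TH588, a log2 fold change of -1.28 ± 0.12 (adjusted p = 3.43e-06). MRPL48 on chromosome 11 had 26.8, 26.2 and 28.1 CPM with DMSO and 9.68, 12.3 and 11.7 CPM with TH588, a log2 fold change of -1.26 ± 0.11 (adjusted p = 1.92e-06). In both genes the groups did not overlap and TH588 A was the lowest library.

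MRPL58, also known as ICT1, is a peptidyl-tRNA hydrolase that can release stalled chains and is built into the large subunit. Its levels were 29.0, 25.8 and 29.3 CPM with DMSO and 11.8, 15.7 and 14.02 CPM with TH588. The groups did not overlap, and the log2 fold change was -1.01 ± 0.12 (adjusted p = 1.76e-05). These 4 genes and MRPL30, which rose, were the only large-subunit genes past a 2-fold difference, and no small-subunit gene was.

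MRPL12, the counterpart of the bacterial stalk protein L7/L12, also binds the mitochondrial RNA polymerase. It had 3.02, 2.22 and 2.93 CPM with DMSO and 0.448, 1.76 and 1.70 CPM with TH588. TH588 A was far below the other libraries, and the log2 fold change was -0.95 ± 0.32 (adjusted p = 0.0278). Without DMSO A the adjusted p was 0.0721, and without DMSO C it was 0.0750. Exons of another gene on the same strand covered 68.2% of its exon bases, and the assignment of reads between the pair is uncertain.

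MRPL10, which anchors the MRPL12 stalk, went the other way. Its levels were 10.7, 12.4 and 12.0 CPM with DMSO and 17.0, 15.6 and 14.1 CPM with TH588, and the log2 fold change was 0.41 ± 0.11 (adjusted p = 0.00960). All TH588 libraries were above all DMSO libraries.

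The other 3 genes that rose were MRPL28, MRPL43 and MRPL30. MRPL28 had 34.4, 26.9 and 31.1 CPM with DMSO and 39.7, 42.1 and 36.0 CPM with TH588, a log2 fold change of 0.35 ± 0.10 (adjusted p = 0.0139). MRPL43 had 18.8, 19.6 and 17.7 CPM with DMSO and 26.9, 24.6 and 20.3 CPM with TH588, a log2 fold change of 0.35 ± 0.11 (adjusted p = 0.0210). In neither gene did the groups overlap. MRPL28 lost its call without DMSO B (adjusted p = 0.0821) and under the replicate block with the gene length trend removed (0.0542), and MRPL43 lost its call without DMSO C (0.0621), without TH588 A (0.0529) and without TH588 B (0.0508). MRPL43 shares 36.9% of its exon bases with genes on the opposite strand. Of these, SEMA4G rose by 1.09 and TWNK, the mitochondrial DNA helicase, fell by 0.39 on the log2 scale, and the library kit did not keep strand.

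MRPL30 was close to the lower limit of these data. It had 0.231, 0.351 and 0.459 CPM with DMSO and 0.673, 0.699 and 1.14 CPM with TH588, which came from 19 to 43 reads per DMSO library and 18 to 95 reads per TH588 library. The log2 fold change was 1.28 ± 0.36 (adjusted p = 0.0111), and it was not called without TH588 C (adjusted p = 0.0891). Genes on the same strand overlapped 19.5% of its exon bases.

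In the small subunit the largest called fall was that of MRPS34, a protein of the mitochondrial lineage. It had 37.3, 29.5 and 36.2 CPM with DMSO and 20.4, 19.0 and 16.7 CPM with TH588, a log2 fold change of -0.88 ± 0.11 (adjusted p = 4.18e-05). MRPS23, of the same lineage, had 53.4, 54.2 and 54.8 CPM with DMSO and 34.1, 33.8 and 30.3 CPM with TH588, a log2 fold change of -0.73 ± 0.08 (adjusted p = 1.41e-05). The DMSO libraries of MRPS23 were nearly identical, and for both genes all TH588 libraries were lower.

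MRPS35 was another gene of this lineage. Its levels were 67.2, 68.2 and 70.1 CPM with DMSO and 43.0, 39.6 and 47.2 CPM with TH588, a log2 fold change of -0.66 ± 0.08 (adjusted p = 4.37e-05). MRPS12, whose bacterial counterpart S12 lies in the decoding centre, had 7.35, 9.45 and 8.64 CPM with DMSO and 4.11, 5.84 and 5.96 CPM with TH588, a log2 fold change of -0.66 ± 0.16 (adjusted p = 0.00406). MRPS2, the counterpart of bacterial S2, had 22.1, 22.1 and 19.98 CPM with DMSO and 14.3, 13.0 and 14.6 CPM with TH588, a log2 fold change of -0.62 ± 0.10 (adjusted p = 0.000269). The groups did not overlap for any of these genes.

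**Figure D3:**
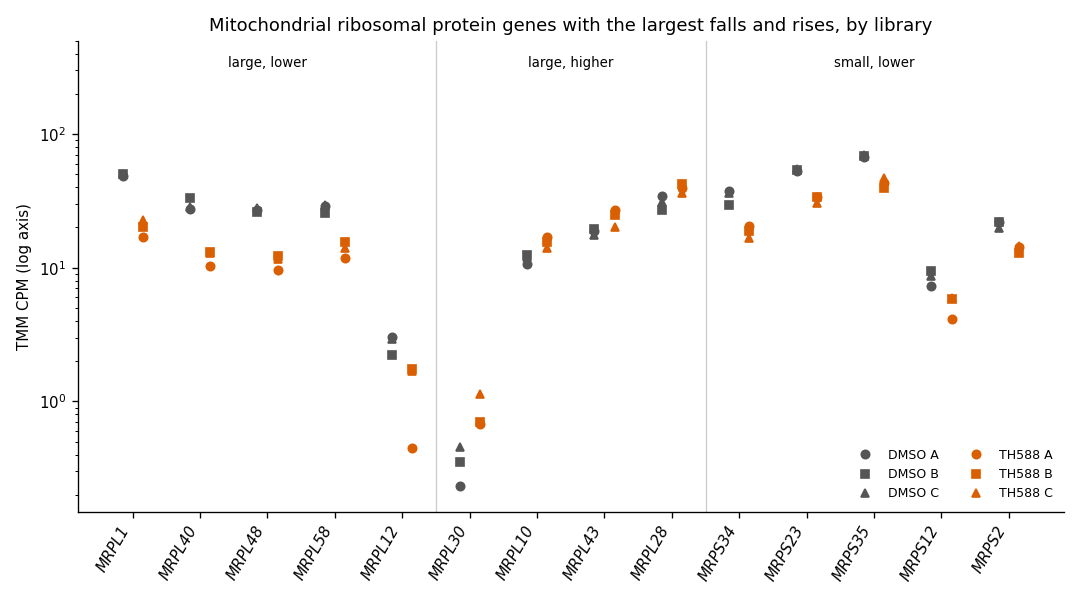
TMM CPM (y, log axis) in each library for the genes with the largest falls and rises (x), DMSO in grey and TH588 in orange, with a marker shape for each of libraries A, B and C. For MRPL1 the DMSO points sit at 48.4 to 50.2 CPM and the TH588 points at 17.0 to 22.8 CPM, and the TH588 points lie above the DMSO points for MRPL30, MRPL10, MRPL43 and MRPL28.

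Promoter sequences from RefSeq (GRCh38.p14, 250 bases before to 50 after each gene start) were matched by symbol for 69 of the 78 genes and for 15303 protein-coding genes in all. Genes of mitochondrial biogenesis are known targets of the ETS-family factor GABP, also called NRF2, and of NRF1 and YY1. Core letters of their sites were therefore searched on both strands, together with the E-box of MYC and the E2F and CHR elements of cell cycle genes. The ETS core CCGGAAG was in 29 of 69 promoters (42.0%), against 14.4% of all promoters and 18.3% of those of tested genes. The YY1 core AAGATGGC was in 20 (29.0%), against 3.97% and 5.12%.

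The remaining letters were searched in the same way. The NRF1 core CGCANGCG was in 13 promoters (18.8%), against 14.4% of all and 18.3% of tested genes. CACGTG was in 6 (8.70% against 8.89% of all), TTCCCGCC in 3 (4.35% against 4.34%) and TTTGAA in 4 (5.80% against 12.1%). Only 1 pair of matches to different motifs shared a base. Median GC content was 60.3% in the promoters of these genes and 63.0% over all.

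The ETS core lies close to the start in many of these genes. Its 39 matches had a median position of 22 bases before the start, and 33 began before it. Among the genes with the largest falls, MRPL1, MRPL12, MRPS35 and MRPS2 had no match. No promoter was matched for MRPL10, which rose. The windows below hold the matches of the genes with the largest falls and rises, to show the letters around the core (30 bases each, read in the direction of the gene, core in capitals, reverse matches as CTTCCGG).
MRPL40, chr22:19432523-19432552 (+): ggggcgcacgcCCGGAAGcggcgagggtag
MRPL48, chr11:73787800-73787829 (+): aatttcagaagCTTCCGGaactaaaatgat
MRPL58, chr17:75012466-75012495 (+): atcggggcactCTTCCGGtagcagctcgct
MRPL58, chr17:75012651-75012680 (+): ggaagcgcccgCCGGAAGcagtcgcaagac
MRPS34, chr16:1773187-1773216 (-): cctcttcctcgCTTCCGGccgcgaccgaac
MRPS34, chr16:1773145-1773174 (-): gacaccggcctCTTCCGGtgacttccggcc
MRPS34, chr16:1773135-1773164 (-): tcttccggtgaCTTCCGGccggaccgctga
MRPS23, chr17:57850040-57850069 (-): tggagcagccgCTTCCGGttccggtagcag
MRPS12, chr19:38930928-38930957 (+): acggatagcgcCCGGAAGaggctagaagct
MRPL28, chr16:370513-370542 (-): cggcagatcggCTTCCGGttccggtgggct
MRPL43, chr10:100987497-100987526 (-): tcgtcccggaaCCGGAAGcctcgaggttta
MRPL30, chr2:99181028-99181057 (+): ggtctgctgcgCTTCCGGgaagtggtcatg

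MRPL40 to MRPS12 in this list fell, with MRPS34 holding 3 matches, whereas MRPL28, MRPL43 and MRPL30 rose. The core was thus in promoters of both directions. It was in 16 of 40 promoters of lower genes (40%) and in 13 of 29 of the others (44.8%). YY1 letters were in 12 of 40 (30%) and 8 of 29 (27.6%), and NRF1 letters in 9 of 40 (22.5%) and 4 of 29 (13.8%).

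Upstream sequence is given for MRPL58, which fell, and MRPL28, which rose, as an example of each direction (160 bases ending just before the start, in the direction of the gene, ETS core in capitals).
MRPL58, chr17:75012510-75012669 (+): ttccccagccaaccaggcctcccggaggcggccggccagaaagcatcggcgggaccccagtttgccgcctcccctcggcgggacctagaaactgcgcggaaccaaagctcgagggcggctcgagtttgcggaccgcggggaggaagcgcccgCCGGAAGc
MRPL28, chr16:370539-370698 (-): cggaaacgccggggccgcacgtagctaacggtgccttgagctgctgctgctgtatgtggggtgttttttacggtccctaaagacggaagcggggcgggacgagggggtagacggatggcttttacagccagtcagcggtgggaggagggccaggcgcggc

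The MRPL58 window ends in an ETS core, 8 bases before the start. The window of MRPL28 holds no match, its only ETS core lying just after the start in the list above.

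YY1 letters lay elsewhere. Of 21 matches, 15 began at or after the start and 17 were on the strand of the gene. In 12 of the 20 genes with a match (60%), the ATG within the letters was an annotated start codon, compared with 252 of 608 protein-coding genes with a match (41.4%). Examples are shown for lower genes (MRPL46, MRPL42, MRPS27 and MRPS7) and for genes that were not called (MRPL45 and MRPL22), with AAGATGGC in capitals.
MRPL46, chr15:88467362-88467391 (-): tgggagaacgaAAGATGGCggcgcccgtaa
MRPL42, chr12:93467511-93467540 (+): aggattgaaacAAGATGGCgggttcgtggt
MRPS27, chr5:72320206-72320235 (-): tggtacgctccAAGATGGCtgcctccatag
MRPS7, chr17:75261887-75261916 (+): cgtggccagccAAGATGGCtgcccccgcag
MRPL45, chr17:38297170-38297199 (+): tttgcgggaacAAGATGGCagcccccatac
MRPL22, chr5:154941093-154941122 (+): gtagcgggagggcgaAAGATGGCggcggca

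The same 8 letters stood in promoters of genes that fell and of genes that were not called.

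Factors that bind these letters were themselves measured, and are named here although their values had been seen. NRF1 had 18.02, 17.7 and 18.4 CPM with DMSO and 12.6, 12.2 and 10.6 CPM with TH588, a log2 fold change of -0.62 ± 0.11 (adjusted p = 0.000401). GABPB1, a subunit of GABP, fell by 0.80 and YY1 by 0.29 on the log2 scale, whereas GABPA, the DNA-binding subunit of GABP, rose by 0.33. Of 9 nuclear regulators of mitochondrial biogenesis, 8 were tested, 5 fell (62.5%, against 25.3% of all genes tested) and 1 rose (12.5%, against 24.2%). The largest fall was that of the coactivator PPARGC1B, with 15.6, 16.4 and 14.3 CPM with DMSO and 5.08, 7.81 and 6.11 CPM with TH588 (log2 fold change -1.26 ± 0.15, adjusted p = 2.19e-05). PPARGC1A, which encodes PGC-1α, had 0 counts in every library, which allows up to 0.112 CPM in TH588 A and up to 0.0365 CPM in the others.

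The most abundant mitochondrial ribosomal transcripts per exon length were also examined. MRPL3, which reaches toward the peptidyl transferase centre, averaged 72.1 CPM per kb of exon with DMSO and 39.8 with TH588. Its library levels were 190, 190 and 207 CPM and 117, 103 and 104 CPM, with no overlap, and the log2 fold change was -0.86 ± 0.08 (adjusted p = 4.70e-06). MRPL47 averaged 67.9 and 46.2 CPM per kb, and MRPL18 58.0 and 41.1 CPM per kb. Their log2 fold changes were -0.56 ± 0.08 and -0.49 ± 0.09 (adjusted p = 0.000106 and 0.000718).

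For the small subunit the most abundant per length were MRPS21, MRPS7 and MRPS16. MRPS7, whose bacterial counterpart S7 starts assembly of the subunit head, had 132, 138 and 141 CPM with DMSO and 109, 104 and 99.6 CPM with TH588, a log2 fold change of -0.39 ± 0.08 (adjusted p = 0.000974). MRPS16 had 89.2, 90.7 and 94.2 CPM with DMSO and 81.7, 75.1 and 74.4 CPM with TH588, a log2 fold change of -0.25 ± 0.08 (adjusted p = 0.0178). The groups did not overlap for either gene, but MRPS16 was called in only 1 of the 6 fits that left out 1 library, that without TH588 A, and its adjusted p in the other 5 ran from 0.0558 to 0.128. MRPS21 had 60.5, 77.0 and 59.3 CPM with DMSO and 83.7, 54.9 and 64.7 CPM with TH588. Its groups overlapped and its log2 fold change was 0.04 ± 0.14 (adjusted p = 0.836).

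Bacterial S18 has 3 mitochondrial relatives, MRPS18A, MRPS18B and MRPS18C, and they received different calls. MRPS18C had 43.2, 55.4 and 54.0 CPM with DMSO and 40.4, 28.4 and 38.8 CPM with TH588, with a log2 fold change of -0.51 ± 0.13 (adjusted p = 0.00737). MRPS18A, which structures place in the large subunit, had a log2 fold change of -0.17 ± 0.11 (adjusted p = 0.209). MRPS18B had 36.4, 39.7 and 37.8 CPM with DMSO and 38.3, 36.5 and 41.0 CPM with TH588, with 0.02 ± 0.08 (adjusted p = 0.839). MRPS18C alone was called, and the difference between the 3 genes was not tested. MRPS18A shares 47.0% of its exon bases with RSPH9 on the opposite strand, which rose by 1.29 on the log2 scale. MRPS18C shares 40.2% with ABRAXAS1 on the opposite strand, which was not called, and MRPS18B shares none. The library kit did not keep strand, and the part of these overlaps was not tested.

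Several further genes with a known role beside or outside translation were not called or barely so. MRPS30, which also sits in the large subunit despite its name, had 44.3, 43.0 and 46.2 CPM with DMSO and 32.8, 37.3 and 41.3 CPM with TH588, a log2 fold change of -0.26 ± 0.09 (adjusted p = 0.0386). It was called in only 1 of the 6 fits that left out 1 library, that without TH588 C, and the adjusted p in the other 5 ran from 0.0690 to 0.177. MRPL41, known to bind BCL2, had a log2 fold change of -0.14 ± 0.16 and MRPL44, with a fold like that of RNase III, -0.10 ± 0.11 (adjusted p = 0.50 and 0.459). MRPS36, now known as a component of the oxoglutarate dehydrogenase complex rather than of the ribosome, had 0.10 ± 0.18 (adjusted p = 0.684).

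Fold changes were also divided by origin, with MRPS18C counted as the counterpart of S18 and its relatives MRPS18A and MRPS18B with the mitochondrial lineage. Of 46 genes with a bacterial counterpart, 28 fell and 3 rose, with a median of -0.46 on the log2 scale. Of 31 tested genes of the mitochondrial lineage, 17 fell and 1 rose, with a median of -0.34. With MRPS18A and MRPS18B moved to the bacterial counterparts, a grouping added after the values were seen, the medians were -0.46 over 48 genes and -0.38 over 29. Among the largest falls, MRPL1, MRPL12, MRPS12 and MRPS2 belong to the first group and MRPL40, MRPL48, MRPL58, MRPS34, MRPS23 and MRPS35 to the second.

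In the large subunit the uncalled genes were MRPL50, MRPL24, MRPL4, MRPL41, MRPL39, MRPL44, MRPL51, MRPL55, MRPL27, MRPL45, MRPL23, MRPL34, MRPL38, MRPL33, MRPL22, MRPL16 and MRPL49, with log2 fold changes from -0.25 to 0.25. MRPL49 was the 1 gene of these with all TH588 libraries above all DMSO libraries (15.1, 16.2 and 18.7 against 13.8, 14.8 and 13.7 CPM, adjusted p = 0.0834). In the small subunit they were MRPS17, MRPS24, MRPS28, MRPS31, MRPS5, MRPS18A, MRPS26, MRPS14, MRPS18B, MRPS21 and MRPS36. MRPS17 and MRPS24 had the widest errors, at -0.92 ± 0.56 and -0.69 ± 0.42, on levels of 0.0747 to 0.339 and 0.204 to 0.621 CPM.

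The least abundant genes had shared exons. Averaged over the libraries, 5 genes were under 1 CPM, namely MRPL53, MRPS17, MRPS24, MRPL30 and MRPL38, and all 5 have exons that overlap a gene on the same strand, as 15 of the 78 genes do. MRPL53, which failed the filter, had 2, 0 and 0 reads with DMSO and 1, 2 and 7 reads with TH588. Its exons overlap those of CCDC142 over 45.2% of its exon bases. The part of read assignment in these low levels was not tested. Among 64 genes with less than 20% of exon bases shared, 41 fell and 3 rose, and the median was -0.44 on the log2 scale. Among the 13 tested genes that share more, 4 fell and 1 rose, and the median was -0.27.

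Many of these genes share a start region with a neighbour on the other strand. Such a head-to-head neighbour within 1000 bases was found for 27 of 78 genes (34.6%), against 13.4% of 20046 protein-coding genes. The latter share covers all annotated protein-coding genes, tested here or not, whereas 77 of the 78 were tested. MRPL46 and MRPS11, 63 bases apart, form a pair within the family, and both fell, by 0.78 and 0.24 on the log2 scale. MRPS11 lost its call without DMSO A, without DMSO C, without TH588 B and without TH588 C, and with 1 library left out its log2 fold change ran from -0.31 to -0.17. MRPS12 and the mitochondrial seryl-tRNA synthetase gene SARS2, 181 bases apart, fell by 0.66 and 0.72. MRPL36 and the complex I gene NDUFS6, 41 bases apart, fell by 0.51 and 0.57.

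In other pairs the neighbours were called in opposite directions. MRPL47 fell while the complex I gene NDUFB5, 41 bases away, rose by 0.23, and MRPL14 fell by 0.46 while TMEM63B rose by 1.53. MRPL43 rose while TWNK, at 148 bases, fell. Of 17 lower genes with a tested neighbour, the neighbour was lower in 7, higher in 6 and not called in 4. MRPL46 and MRPS11 are both among the 17, each as the neighbour of the other. Among all genes tested, 25.3% were called lower and 24.2% higher. The pairs above were named after their values were seen.

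Of 5 mitoribosomal proteins named otherwise, 4 fell (80%, against 25.3% of all genes tested). AURKAIP1, of the small subunit, had 39.4, 35.7 and 33.8 CPM with DMSO and 23.2, 27.0 and 19.4 CPM with TH588 (log2 fold change -0.64 ± 0.12, adjusted p = 0.000687). GADD45GIP1, of the large subunit near the exit of the peptide tunnel, fell by 0.55, the GTPase DAP3 by 0.27 and the RNA-binding protein PTCD3 by 0.26. CHCHD1 had 16.8, 15.6 and 16.5 CPM with DMSO and 15.2, 14.3 and 17.8 CPM with TH588 and was not called.

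Genes that act around the mitochondrial ribosome were taken as lists. Of 26 assembly factors, 7 fell (26.9%) and 2 rose (7.69%), and the median was -0.16 on the log2 scale. The share that fell was near the 25.3% of all genes tested. MTERF3 had the largest fall, -1.16 ± 0.15 (adjusted p = 4.53e-05), and YBEY, an RNA endonuclease of ribosome maturation, the largest rise, 0.40 ± 0.10 (adjusted p = 0.00590). Of 16 translation factors and genes acting beside them, such as LRPPRC, SLIRP and OXA1L, 7 fell (43.8%) and 2 rose (12.5%). Their median was -0.28. The largest fall was that of SLIRP, the partner of LRPPRC in mitochondrial mRNA stability, at -0.95 ± 0.10. The release factor gene MTRF1 had the largest rise, at 0.39 ± 0.12.

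Genes for maintenance of mitochondrial DNA and for the synthesis and processing of its RNA were mostly lower. Of 14, 10 fell (71.4%, against 25.3% of all genes tested) and 4 were not called, with a median of -0.42. Those 4 were POLRMT, TEFM, POLG2 and SUPV3L1, with log2 fold changes of -0.10, 0.14, -0.04 and -0.15. PNPT1, the mitochondrial polynucleotide phosphorylase, had 188, 192 and 199 CPM with DMSO and 102, 95.7 and 96.3 CPM with TH588 (log2 fold change -0.98 ± 0.07, adjusted p = 7.34e-07).

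Nuclear genes of the respiratory chain and cytosolic ribosomal protein genes had medians closer to 0. Of 78 respiratory chain genes tested, 28 fell (35.9%) and 5 rose (6.41%), with a median of -0.18. NDUFB9 of complex I fell by 0.85 and ATP5IF1, the inhibitor of ATP synthase, rose by 1.39. Of 86 cytosolic ribosomal protein genes tested, 14 fell (16.3%) and 11 rose (12.8%), with a median of 0.04. RPL22L1 fell by 1.20 and RPS27L, a paralogue of RPS27, rose by 1.18. No test was made between lists, and the medians and counts are descriptions. Among all genes tested, 25.3% were called lower and 24.2% higher. These lists were not divided by level, and in the highest bin of level 46.7% of all genes were lower, with a median of -0.20.

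**Figure D4:**
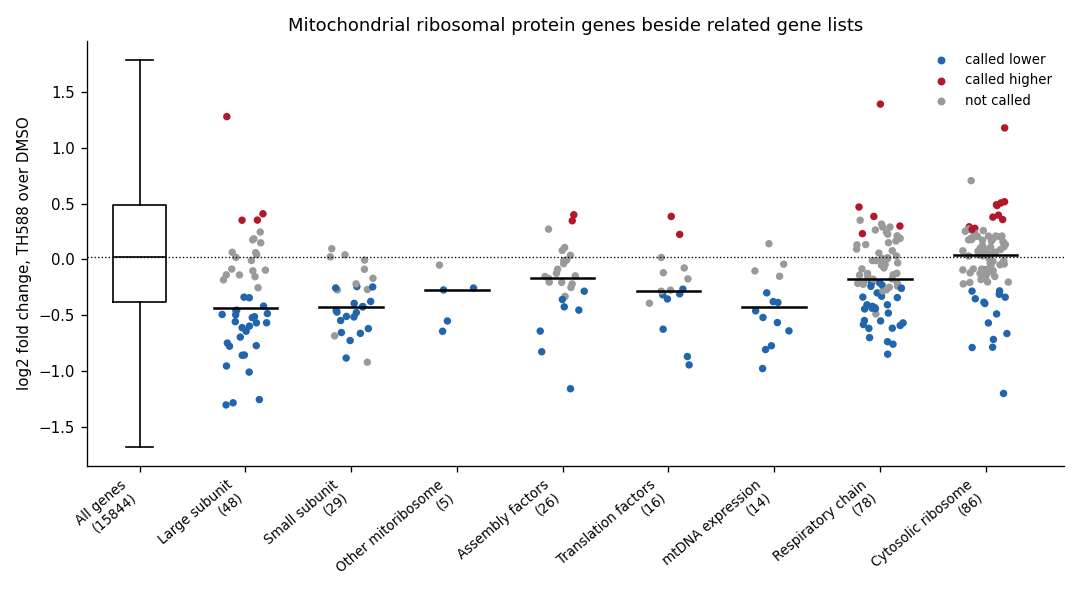
Log2 fold change, TH588 over DMSO (y), of each tested gene in the mitoribosomal and related lists (x, number tested in parentheses), coloured by call, with a bar at each median. The box for all genes shows the quartiles at -0.38 and 0.49, with whiskers at up to 1.5 times their distance and the dotted line at the median. The medians are -0.44 and -0.42 for the large and small subunit and 0.04 for the cytosolic ribosome.

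The RNAs that the mitochondrial ribosome contains and reads were also counted, in libraries made from polyadenylated RNA. The rRNAs MT-RNR1 and MT-RNR2 were not called, with MT-RNR2 at 4265 to 5580 CPM with DMSO and 4316 to 7241 CPM with TH588. The 13 mitochondrial mRNAs summed to 82.7 to 116 CPM with DMSO and 58.0 to 96.5 CPM with TH588, and these ranges overlapped. Of these mRNAs, 4 fell (30.8%), near the 25.3% of all genes tested. Their median log2 fold change was nonetheless -0.44, with 12 of 13 below 0 and standard errors of 0.15 to 0.40. MT-ND6, encoded on the other strand of the mitochondrial genome, fell most (log2 fold change -0.86 ± 0.17, adjusted p = 0.000999). Its levels were 4.55, 5.30 and 4.01 CPM with DMSO and 2.62, 2.21 and 2.86 CPM with TH588. The library kit did not keep strand, so these reads cannot be assigned to either strand.

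Across 17 fits with another scaling, tool, filter, block or library left out, 33 of the 45 lower genes were called lower in each, 19 of the large and 14 of the small subunit, and all 45 had a log2 fold change below 0 in each. The 12 that lost the call in at least 1 fit were MRPL19, MRPL36, MRPL2, MRPL32, MRPL17, MRPL57, MRPL12, MRPL54, MRPS30, MRPS16, MRPS11 and MRPS6, and of these MRPS30 and MRPS11 were called in only 6 of the 17. Of the 4 that rose, MRPL10 alone kept its call in each.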

How the data were processed

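Polyadenylated RNA from 6 cultures of A2780 cells, 3 with DMSO and 3 with TH588, was sequenced with an unstranded TruSeq RNA kit. Reads were aligned to GRCh38 with TopHat and assigned to genes with featureCounts (version 1.4.6, Subread), per the labels and the study's methods. The table deposited by the authors holds raw counts for each gene. How reads on overlapping genes or with several alignments were treated is not given in the sources used here. The methods name UCSC gene models, whereas the table carries Ensembl identifiers.

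Counts were tested with edgeR (4.0.16, R 4.3.3): TMM scaling, filterByExpr, a quasi-likelihood fit without covariates and Benjamini-Hochberg adjustment over 15844 genes. Standard errors came from each log2 fold change and its quasi-likelihood F statistic. CPM were scaled by TMM, and levels per kb used the exon length in the table. The steps were tested on simulated counts with 200 changed genes, as many up as down. The main fit called 7852 genes, so the simulation does not cover a change this broad. DESeq2 (1.42.0) and limma-voom (limma 3.58.1) were alternatives, with other scalings, filters and each library left out. Replicates were separate experiments, and their counts differed by more than sampling noise. The main fit treated the libraries as unpaired, and the labels do not say whether a shared letter marks a shared experiment.

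The genes and lists were chosen with earlier results of these data known. Genes were named by rule: per subunit the 5 largest called rises and falls without overlap between groups, the 3 highest levels per length and 10 genes with a role of their own, and of each list the largest called rise and fall. Library totals ranged from 28537837 to 99074175 counts, and the count floor of 3 covers counting error only.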

Additional observations from a re-analysis of the deposited data

How the results depend on the processing

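Direction and call of the subunit summaries held under most alternatives. Scaling by library size only moved the median of all genes from 0.02 to 0.13 and gave medians of -0.33 for the large and -0.32 for the small subunit, with 22 and 14 genes lower, and 60.4% of all called genes higher in place of 48.9%. The large median was -0.38 with genes assigned to subunits by structure, and -0.44 to -0.38 with each library left out. Lower calls then ranged from 23 to 29 in the large and 14 to 16 in the small subunit. At an adjusted p under 0.01, 1 large-subunit gene was higher. No small-subunit gene was called higher by edgeR, DESeq2 or limma-voom.

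Some uncalled genes changed sign, and the cause was not tested. With each library left out, MRPS21 ran from -0.12 to 0.17, MRPL41 from -0.19 to 0.001, MRPS18B from -0.003 to 0.063 and MRPS36 from -0.054 to 0.313. With the gene length trend removed, MRPS21 was -0.041 and MRPS18B -0.056. With the replicate block as well, MRPS21 was -0.048, MRPS18B -0.057 and MRPS36 -0.012. MRPL44 was 0.009 with library size only. In all, 442 values of named genes kept their direction and call, 33 lost the call and 11 changed sign.

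Under the replicate block alone, 27 large-subunit and 15 small-subunit genes were lower. Deviations of same-lettered libraries correlated at -0.17, -0.20 and -0.01. With so few libraries this cannot settle whether a shared letter marks a shared experiment, which the labels do not say. Counts were lowest for MRPL53, MRPS17, MRPS24, MRPL30 and MRPL38.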

Other observations

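Gene copies with the same stem were nearly silent. Of 86 further features whose symbols continue an MRPL or MRPS stem but are not protein-coding, 79 were pseudogenes, and 61 of these had 0 counts in all libraries. Together the pseudogenes averaged 0.611 CPM with DMSO and 0.746 CPM with TH588, and none reached 5% of its parent gene in DMSO. With TH588 this held for all but MRPS17P9, whose reads in TH588 C alone gave a mean of 16.7% of that of MRPS17, itself at 0.12 CPM. MRPL35P2, 1 of 3 that were tested, had 0.110, 0.0727 and 0.0427 CPM with DMSO and 0.299, 0.193 and 0.204 CPM with TH588. Its adjusted p was 0.0431 (edgeR), whereas its parent MRPL35 fell by 0.61 on the log2 scale. A count of 3 corresponded to 0.0320 CPM in DMSO C and 0.112 CPM in TH588 A, so the levels of MRPL35P2 rest on few reads. The antisense RNA MRPL20-AS1 had 4.65, 4.44 and 4.29 CPM with DMSO and 4.15, 4.48 and 4.77 CPM with TH588, while MRPL20 itself fell by 0.57 on the log2 scale. Without strand, reads of this pair over shared bases cannot be told apart.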
